A study of Mus musculus with 13 samples.

Results

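The basic leucine zipper (bZIP) factors Bach1, Bach2, Maf, Maff, Mafg, Mafk, Nfil3, Atf3 and Jdp2 were examined in naive and stimulated CD8+ T cells with and without Batf. All 19 probe sets that the platform annotation assigns to these 9 symbols were taken, of 45037 probe sets other than controls, which cover 18193 genes in all. Maf had 6 probe sets, Bach2 had 3, and Bach1, Mafg and Jdp2 had 2 each. Maff, Mafk, Nfil3 and Atf3 had 1 each, and no member probe set is assigned to several genes.

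The 13 arrays fall into 4 groups, all of P14 T cell receptor transgenic mice on a C57Bl/6 background, so that both genotypes carry the same transgenic receptor. They are Batf-/- cells on day 3 of stimulation (4 arrays), wild-type cells on day 3 (4 arrays), Batf-/- naive cells on day 0 (3 arrays) and wild-type naive cells on day 0 (2 arrays). Day 3 cells had been cultured with 100 U/ml of recombinant human IL-2 on plates coated with anti-CD3 and anti-CD28. CD8+ cells had been enriched by negative magnetic selection. The labels give no age and name no Cre or cell type restriction for the Batf mutation.

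A bZIP factor binds DNA as a pair, held together by a leucine zipper, and the choice of partner sets the sequence that the pair reads. Bach1 and Bach2 pair with the small Maf proteins Maff, Mafg and Mafk, which have no activation domain of their own, and repress genes that carry Maf recognition elements. Maf is a large Maf protein with an activation domain. Batf, like Jdp2, has no activation domain and pairs with Jun proteins at AP-1 sites. Bach2 is known to hold back effector genes in T cells by occupying AP-1 sites, Nfil3 is required for natural killer cell development, and Atf3 is a stress-induced factor that binds cyclic AMP response elements (CREs).

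Batf RNA separated the genotypes in every array. The log2 intensity of its probe set was 5.56 to 6.77 in Batf-/- and 8.63 to 9.19 in wild-type day 3 arrays, and 5.6 to 6.06 in Batf-/- and 9.19 to 9.36 in wild-type naive arrays. Array medians were 31.5 to 32.5 on the intensity scale, and precision is limited by how few arrays a group has and by the spread among them. The CD8 T cell markers, 7 of 8 measured, had mean log2 intensities between 11.41 and 12.03 in all arrays. Naive preparations also held RNA of other cell types, and Batf-/- naive replicate 1 stood apart, with a mean of 8.51 for 7 neutrophil markers against 4.68 and 5.68 in the other Batf-/- naive arrays and 5.67 and 5.17 in wild type. Results on the factors whose call changed without that array are given with and without it.

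Most of these factors differed between day 3 and naive arrays, and in the same direction in both genotypes. Change with stimulation, here and below, names this comparison. Day 3 cells also differed from naive cells in culture, IL-2 and RNA of other cell types, and no group was cultured without stimulation. These parts cannot be told apart. Nfil3, Jdp2, Atf3, Maff and Mafg rose, Maf, Bach2 and Mafk fell, and Bach1 changed little. In Batf-/- cells 14 of the 19 probe sets passed the test between day 3 and naive arrays, 6 higher and 8 lower. In wild-type cells 13 passed, 6 higher and 7 lower. A probe set passed when limma's moderated test, adjusted by the Benjamini-Hochberg method over all 45037 probe sets, gave an adjusted p below 0.05. Among all probe sets 38.3% passed in Batf-/- cells (18.5% higher and 19.8% lower) and 38.6% in wild-type cells (17.9% higher and 20.8% lower). Whether replicate arrays stand for different mice or only different preparations is not labelled, and the p-values cover just the array-to-array spread, which may be technical.

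**Figure D1:**
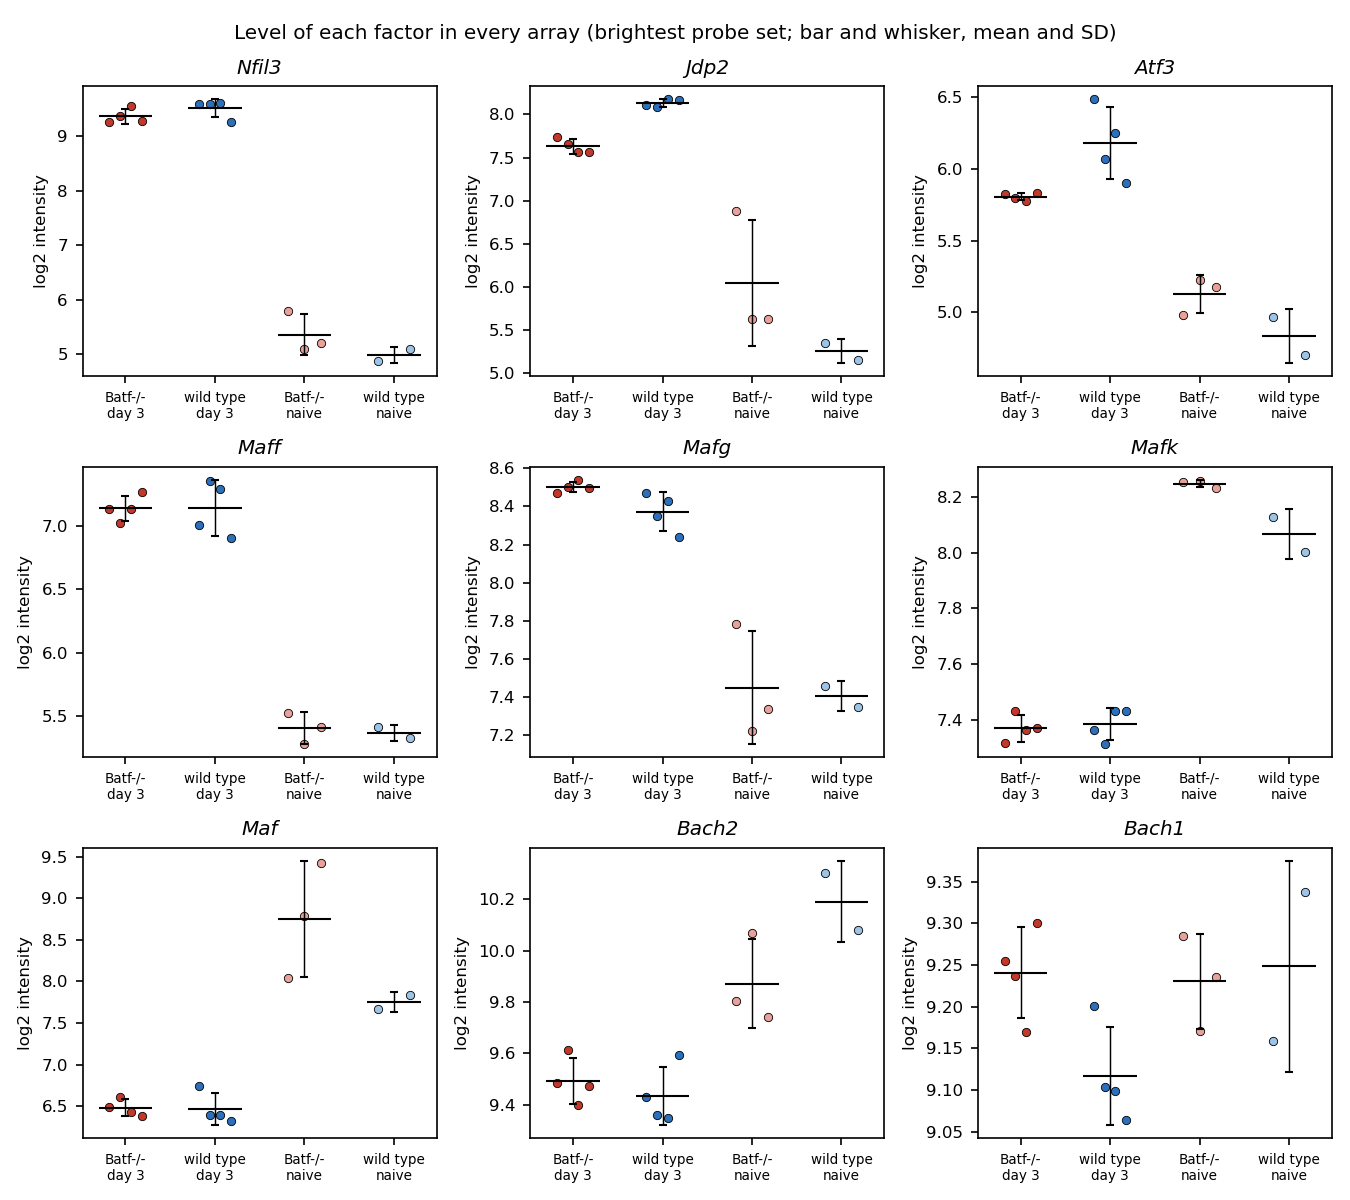
Log2 intensity of the brightest probe set of each of the 9 factors (vertical axis, a scale of its own in each panel) in every array, by group from left to right Batf-/- day 3, wild-type day 3, Batf-/- naive and wild-type naive, with points for arrays and a bar and whisker for mean and SD. Nfil3, Jdp2, Atf3, Maff and Mafg are higher in all 8 day 3 arrays than in all 5 naive arrays, Maf, Bach2 and Mafk are lower, and Bach1 stays between 9.06 and 9.34.

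Nfil3 had the largest rise among the members. Its log2 intensity was 9.26, 9.37, 9.56 and 9.27 in Batf-/- day 3 arrays and 9.59, 9.58, 9.61 and 9.26 in wild-type day 3 arrays. In naive cells it was 5.79, 5.09 and 5.20 in Batf-/- arrays and 4.88 and 5.09 in wild-type arrays. Day 3 and naive arrays were far apart in both genotypes, whereas the genotypes overlapped in each state. At day 3 the overlap came from wild-type replicate 4 (9.26), and the other wild-type arrays lay above all Batf-/- arrays. The rise was 16-fold in Batf-/- cells (log2 4.00 ± 0.15, SE, n = 4 and 3, limma adjusted p = 1.33e-10) and 23.0-fold in wild-type cells (4.52 ± 0.17, n = 4 and 2, adjusted p = 1.78e-10). Only 0.0933% of all probe sets had a larger rise in Batf-/- cells, and 0.0666% in wild-type cells.

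Jdp2, a repressor that pairs with Jun proteins and with Atf2, had a smaller rise in Batf-/- cells, though the difference between the rises did not pass with all arrays. Its brighter probe set, 1450350_a_at, had log2 intensities of 7.74, 7.65, 7.56 and 7.56 in Batf-/- day 3 arrays and 8.11, 8.08, 8.17 and 8.16 in wild-type day 3 arrays. Naive arrays had 6.88, 5.62 and 5.63 in Batf-/- cells and 5.35 and 5.16 in wild-type cells. The genotypes did not overlap in either state, with Batf-/- lower at day 3 and higher in naive cells. The rise was 2.99-fold in Batf-/- (1.58 ± 0.22, adjusted p = 5.81e-05) and 7.35-fold in wild-type cells (2.88 ± 0.26, adjusted p = 6.96e-07). Batf-/- naive replicate 1, at 6.88, raised the naive mean and so made the Batf-/- rise smaller. Without that array the difference between the rises was -0.88, against -1.30 with it. The other Jdp2 probe set, 1424972_at, lay near the background, with group means from 3.88 to 4.06, and did not pass in any comparison. Near the background means, here and below, a mean under 4.35, which is the upper limit of the dimmest 40% of probe sets over the 13 arrays.

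Atf3, a repressor and activator induced by stress and by antigen receptor signals, rose moderately. It had 5.82, 5.80, 5.77 and 5.83 in Batf-/- day 3 arrays and 6.49, 6.07, 6.25 and 5.90 in wild-type day 3 arrays, and 4.98, 5.23 and 5.17 in Batf-/- naive and 4.97 and 4.70 in wild-type naive arrays. As for Jdp2, the genotypes did not overlap in either state and their order was opposite in the 2 states. The rise was 1.60-fold in Batf-/- (0.68 ± 0.12, adjusted p = 0.000364) and 2.54-fold in wild-type cells (1.35 ± 0.14, adjusted p = 2.21e-06).

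The small Maf genes did not move together. Maff had 7.13, 7.02, 7.13 and 7.26 in Batf-/- day 3 arrays, 7.01, 7.36, 7.29 and 6.90 in wild-type day 3 arrays, 5.53, 5.28 and 5.42 in Batf-/- naive arrays and 5.41 and 5.33 in wild-type naive arrays. It rose 3.32-fold in Batf-/- (1.73 ± 0.11, adjusted p = 2.34e-08) and 3.41-fold in wild-type cells (1.77 ± 0.12, adjusted p = 7.42e-08), and the genotypes overlapped throughout. Mafg rose 2.08-fold in Batf-/- (1.05 ± 0.11, adjusted p = 3.28e-06) and 1.96-fold in wild-type cells (0.97 ± 0.13, adjusted p = 2.42e-05) by its brighter probe set. Its other probe set rose by 0.92 ± 0.09 in Batf-/- and 0.72 ± 0.10 in wild-type cells and passed as well. Mafk went the other way, although its protein pairs with the same partners. It had 7.31 to 7.43 in Batf-/- and 7.31 to 7.43 in wild-type day 3 arrays, against 8.23 to 8.26 in Batf-/- and 8.0 to 8.13 in wild-type naive arrays. The log2 change was -0.88 ± 0.06 in Batf-/- (adjusted p = 8.13e-08) and -0.68 ± 0.07 in wild-type cells (adjusted p = 3.36e-06).

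The 250 bases before an annotated start of each of the 5 genes that rose are shown because these genes moved together. They come from RefSeq (GRCm38.p6), whose promoter table holds 8 of the 9 members, with 12 starts. Maf is the member without an entry, so it was not searched. Of Maff and Jdp2, which have 3 starts each, the second in genome order is given, which for both genes is the only start with a match to the core described next. Both strands were searched for the AP-1 site TGANTCA, the CRE TGACGTCA, its shorter core TGACGT, the Maf recognition core TGCTGAC and the NFIL3-type site TTANNTAA. The shorter core was added after the sequences had been seen, and the CRE contains it. Capitals mark any match.
Nfil3 (chr13:52981040-52981289, minus strand): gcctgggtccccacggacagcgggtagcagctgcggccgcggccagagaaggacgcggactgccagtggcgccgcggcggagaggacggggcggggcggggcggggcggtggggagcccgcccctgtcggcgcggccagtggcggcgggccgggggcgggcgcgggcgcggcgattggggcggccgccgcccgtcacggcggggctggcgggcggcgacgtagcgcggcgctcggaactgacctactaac
Jdp2 (chr12:85599166-85599415, plus strand): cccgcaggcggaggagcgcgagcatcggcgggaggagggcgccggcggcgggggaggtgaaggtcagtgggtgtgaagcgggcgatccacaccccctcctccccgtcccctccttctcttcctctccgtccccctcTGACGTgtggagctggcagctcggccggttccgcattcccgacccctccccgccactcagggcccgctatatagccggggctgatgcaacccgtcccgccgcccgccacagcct
Atf3 (chr1:191183334-191183583, minus strand): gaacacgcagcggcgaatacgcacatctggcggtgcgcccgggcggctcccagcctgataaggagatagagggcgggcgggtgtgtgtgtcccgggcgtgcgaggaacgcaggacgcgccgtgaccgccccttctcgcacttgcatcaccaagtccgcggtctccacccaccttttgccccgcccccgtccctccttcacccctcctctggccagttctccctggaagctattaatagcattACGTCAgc
Maff (chr15:79347270-79347519, plus strand): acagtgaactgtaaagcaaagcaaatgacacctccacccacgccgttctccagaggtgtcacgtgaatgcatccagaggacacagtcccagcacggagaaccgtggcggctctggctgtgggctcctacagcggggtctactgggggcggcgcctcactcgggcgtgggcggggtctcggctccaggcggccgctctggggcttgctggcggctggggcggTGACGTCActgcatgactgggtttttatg
Mafg (chr11:120633548-120633797, minus strand): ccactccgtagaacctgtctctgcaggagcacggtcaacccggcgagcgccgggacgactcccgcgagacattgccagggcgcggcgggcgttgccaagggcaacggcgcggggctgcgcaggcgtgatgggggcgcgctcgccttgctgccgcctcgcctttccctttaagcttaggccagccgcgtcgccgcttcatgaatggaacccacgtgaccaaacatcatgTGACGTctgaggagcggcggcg

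The CRE TGACGTCA was found before 1 start of Maff, between bases -29 and -22 from the start, and in 1.55% of 32851 promoter windows of this length. The core TGACGT, which 6.47% of all windows hold, lay in the windows shown for Maff, Mafg (-22 to -17), Atf3 (-8 to -3) and Jdp2 (-114 to -109), and in no window of Nfil3, Bach1, Bach2 or Mafk, nor in the other 4 windows of Maff and Jdp2. The core was chosen after the sequences had been seen, and the windows of Maff and Jdp2 were shown for holding it. Its matches can therefore not be weighed against the share of all windows or taken as a trait of the genes that rose. Other starts of Jdp2 held a TTANNTAA match (-50 to -43) and a TGCTGAC match (-88 to -82), which 5.43% and 3.81% of all windows hold. The AP-1 letters TGANTCA were in none of the 12 windows, against 6.75% of all. A match describes the letters of a window and does not show that a factor binds there, and a window without a match shows only that the letters are absent from it.

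Maf fell with stimulation and differed most between the genotypes in naive cells. Its brightest probe set, 1456060_at, had 6.49, 6.62, 6.43 and 6.38 in Batf-/- day 3 arrays and 6.74, 6.40, 6.40 and 6.32 in wild-type day 3 arrays, against 8.04, 8.79 and 9.42 in Batf-/- naive and 7.66 and 7.83 in wild-type naive arrays. Both genotypes reached the same range at day 3 from naive ranges that did not overlap. The fall was 4.83-fold in Batf-/- (-2.27 ± 0.23, adjusted p = 1.98e-06) and 2.44-fold in wild-type cells (-1.29 ± 0.26, adjusted p = 0.00105). Of the 6 Maf probe sets, 5 passed as lower in Batf-/- and 3 in wild-type cells, and the exception in Batf-/- cells, 1447945_at, had group means between 5.25 and 5.34. For 1447849_s_at (-2.40 in Batf-/- and -1.68 in wild-type cells) and for 1435828_at in Batf-/- cells (-1.57) the day 3 means lay near the background, so these changes are lower bounds in size. For 1435828_at in wild-type cells (-0.76) and for 1444073_at (-0.52 in Batf-/- and -0.34 in wild-type cells) both compared means lay near the background. The wild-type calls of 1447849_s_at and 1435828_at rested on single arrays, with adjusted p = 0.0566 and 0.0998 without wild-type naive replicate 2. The 1435828_at call did not survive the removal of wild-type naive replicate 1 (adjusted p = 0.156) or of wild-type day 3 replicates 1, 2 or 3 (0.0726, 0.0567 and 0.0547). The weak Batf-/- call of 1444073_at was lost without Batf-/- naive replicate 3 (adjusted p = 0.0511). In wild-type cells 1437473_at (-0.42, adjusted p = 0.0273) and 1444073_at (-0.34, adjusted p = 0.0475) passed as lower once Batf-/- naive replicate 1 was left out.

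**Figure D2:**
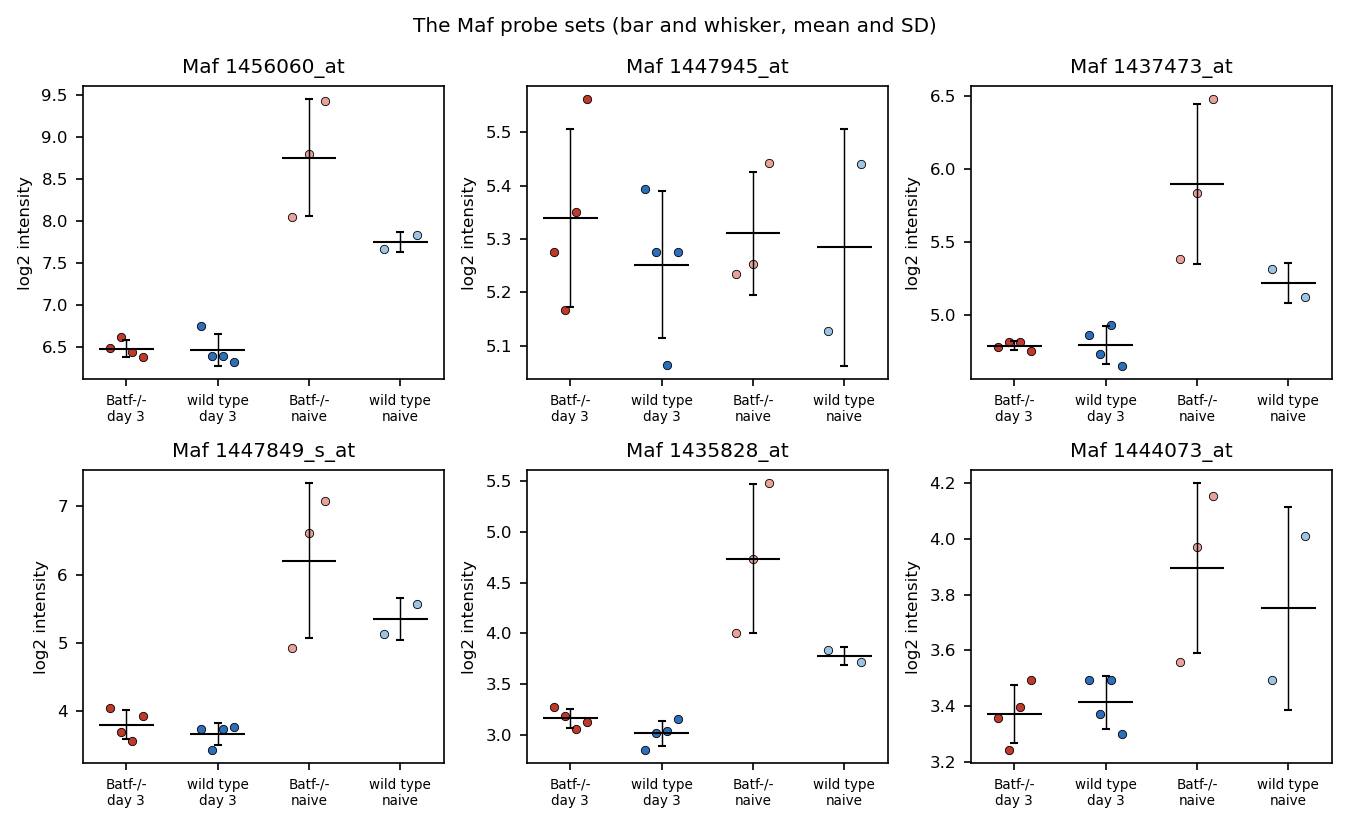
Log2 intensity of the 6 Maf probe sets in every array, in the group order Batf-/- day 3, wild-type day 3, Batf-/- naive and wild-type naive, with points for arrays and a bar and whisker for mean and SD. The naive arrays are above the day 3 arrays except for 1447945_at and, in part, 1444073_at, and Batf-/- naive replicates spread over 8.04 to 9.42 for 1456060_at.

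RNA of other cell types fell over the same interval as Maf and Mafk. In each array the mean log2 intensity of 4 measured natural killer cell markers was 4.41 to 4.60 in Batf-/- and 4.29 to 4.60 in wild-type day 3 arrays, against 7.20 to 8.48 in Batf-/- and 6.64 to 6.79 in wild-type naive arrays. The mean of 9 B cell markers was 4.83 to 5.0 in Batf-/- and 4.86 to 4.94 in wild-type day 3 arrays, against 6.94 to 7.43 in Batf-/- and 6.10 to 6.55 in wild-type naive arrays. That of 7 markers of innate-like T cells (Il1r1, Tmem176a, Tmem176b, Ccr6, Il17a, Zbtb16 and Scart2) was 5.55 to 5.68 in Batf-/- and 5.68 to 5.83 in wild-type day 3 arrays, against 6.99 to 7.81 in Batf-/- and 6.52 to 6.76 in wild-type naive arrays. In such bulk RNA, fewer cells of a type and less RNA per cell cannot be told apart, and the part of these cells in the falls of the factors was not tested.

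Bach2 stayed bright and fell by less than 2-fold. Its brightest probe set had 9.48, 9.61, 9.40 and 9.47 in Batf-/- day 3 arrays and 9.43, 9.36, 9.35 and 9.59 in wild-type day 3 arrays, against 9.81, 10.07 and 9.74 in Batf-/- naive and 10.30 and 10.08 in wild-type naive arrays. Every day 3 array was below every naive array, in both genotypes. The log2 change was -0.38 ± 0.10 in Batf-/- (adjusted p = 0.00587) and -0.76 ± 0.11 in wild-type cells (adjusted p = 6.36e-05). A second probe set fell by 0.48 ± 0.08 in Batf-/- and 0.68 ± 0.09 in wild-type cells and passed in both, and the third, dimmer one (group means 5.56 to 5.67) passed in neither. Bach2 RNA is also known from B cells, whose markers are given above.

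Bach1, the haem-sensing relative of Bach2 that represses Hmox1, was level. Its brighter probe set had means of 9.24 ± 0.05 in Batf-/- day 3 (SD, n = 4), 9.12 ± 0.06 in wild-type day 3 (n = 4), 9.23 ± 0.06 in Batf-/- naive (n = 3) and 9.25 ± 0.13 in wild-type naive arrays (n = 2), and its changes with stimulation were 0.01 ± 0.07 in Batf-/- and -0.13 ± 0.08 in wild-type cells (SE). The dimmer Bach1 probe set passed in wild-type cells (-0.25 ± 0.09, adjusted p = 0.0495), but not in most of the other fits. Its adjusted p was 0.106 after quantile normalisation, and from 0.0515 to 0.372 in 9 of 13 fits with 1 array removed.

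**Figure D3:**
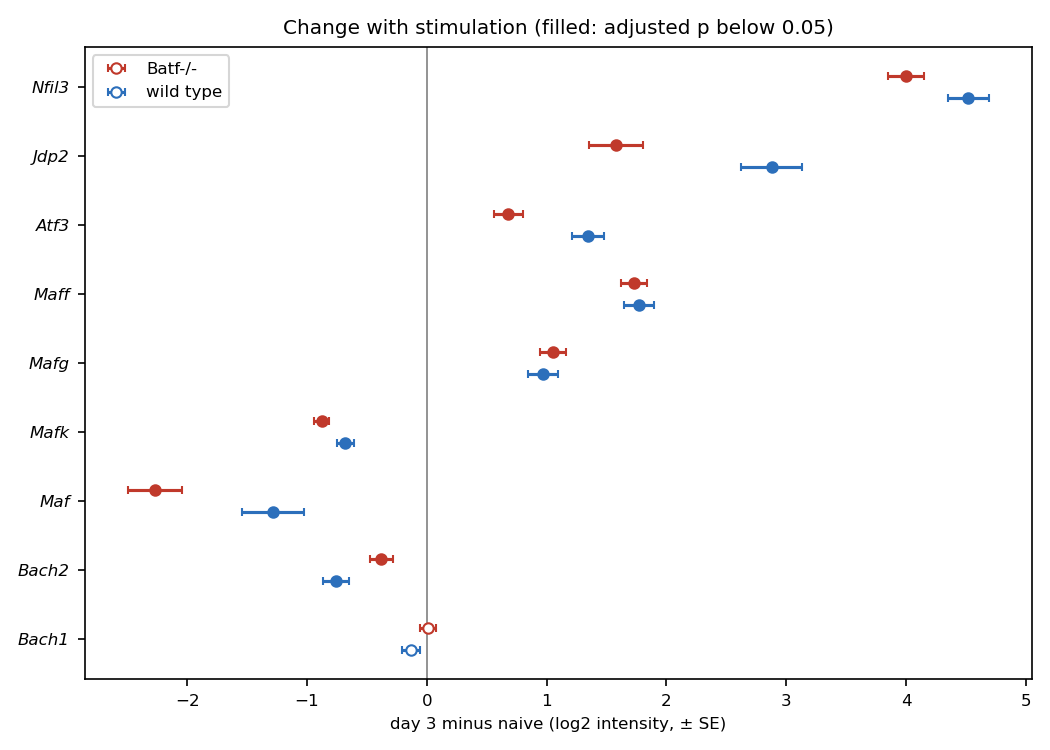
Day 3 minus naive difference in log2 intensity (horizontal axis, with its SE) of the brightest probe set of each factor, Batf-/- in red above wild type in blue, with filled points for adjusted p below 0.05. Nfil3, at the top, has the largest rise (4.00 in Batf-/- and 4.52 in wild type), and Bach1, at the bottom, is near 0 (0.01 and -0.13).

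Which of these factors are expressed differently in stimulated cells that lack Batf was asked by comparing the genotypes at day 3. None of the 19 probe sets passed in limma, and 4 had an unadjusted p under 0.05, where 0.773% of all probe sets passed and 10.7% had an unadjusted p under 0.05. The arrays of the genotypes did not overlap for 4 of 19 member probe sets, against 9.83% of all. Lower in Batf-/- among these were Jdp2 (-0.50 ± 0.21, SE, n = 4 and 4, adjusted p = 0.394) and Atf3 (-0.37 ± 0.11, adjusted p = 0.179), and higher were the dimmer probe sets of Bach1 (0.19 ± 0.08, adjusted p = 0.366) and Mafg (0.18 ± 0.08, adjusted p = 0.465). The median of the 19 differences was 0.03, and that of all probe sets was 0.01.

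For Jdp2 the call at day 3 depended on the estimate of the spread. The SD of its log2 intensity was 0.09 in Batf-/- and 0.04 in wild-type day 3 arrays, while the SE above also carries the spread of the naive groups, where the SD was 0.73 in Batf-/- and 0.14 in wild-type arrays. With the 8 day 3 arrays alone the same difference of -0.50 passed (adjusted p = 0.00195), as it did without Batf-/- naive replicate 1 (adjusted p = 0.00154) and with array quality weights (-0.52, adjusted p = 0.0267). Jdp2 lies 46.8 kb from Batf on chromosome 12 in the RefSeq gene table, with 1 gene, but no protein-coding gene, between them. Whether the altered Batf locus bears on the Jdp2 difference was not tested. Atf3 passed at day 3 with array quality weights (-0.41, adjusted p = 0.0306) but not with the day 3 arrays alone (adjusted p = 0.126).

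The other factors had small differences at day 3. Nfil3 was at -0.15 ± 0.14 (-0.23 without wild-type day 3 replicate 4, adjusted p = 0.633), Bach2 at 0.06 ± 0.09, Maf at 0.02 ± 0.21, Mafk at -0.02 ± 0.06, Mafg at 0.13 ± 0.10 and Bach1 at 0.12 ± 0.06 by their brightest probe sets, and Maff was at 0.00 ± 0.10. These values miss the threshold, and their errors leave room for small differences on the log2 scale.

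**Figure D4:**
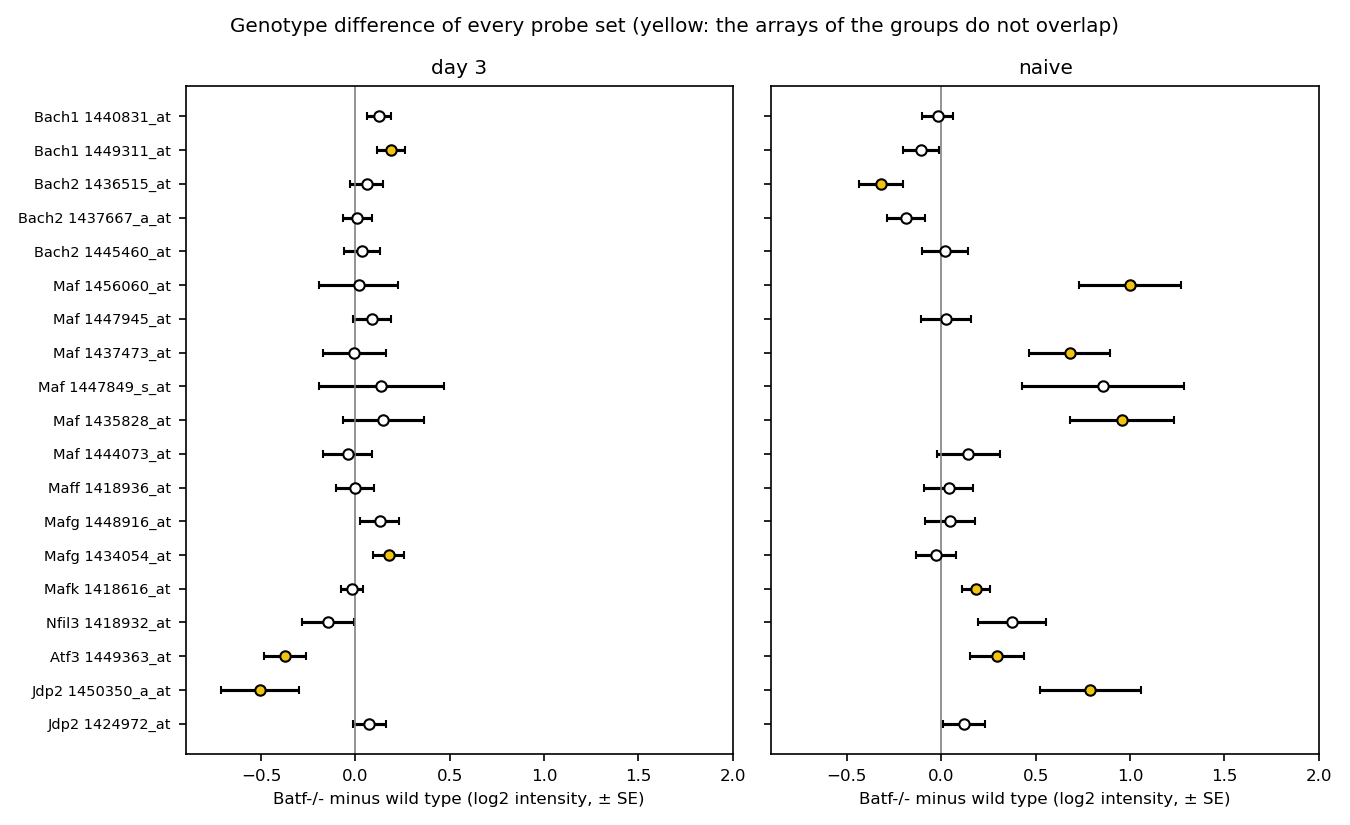
Batf-/- minus wild-type difference in log2 intensity with its SE (horizontal axis) for each of the 19 probe sets, at day 3 on the left and in naive cells on the right, with yellow points where the arrays of the groups do not overlap. No point passed after adjustment, and Jdp2 and Atf3 lie below 0 at day 3 (-0.50 and -0.37) and above 0 in naive cells (0.79 and 0.29).

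The same comparison in naive cells asks whether these factors differed before stimulation. No member probe set passed in limma, 6 had an unadjusted p under 0.05, and 7 of 19 had groups without overlap. Among all probe sets 0.739% passed, 13.6% had an unadjusted p under 0.05 and 24.9% had no overlap, a share that is high because the groups are small. Maf had the largest difference. It was 1.0 ± 0.27 for the brightest probe set (SE, n = 3 and 2, adjusted p = 0.118), a 2.0-fold higher mean in Batf-/- cells, and 0.68, 0.86 and 0.96 for 1437473_at, 1447849_s_at and 1435828_at, the last from a wild-type mean near the background. Without Batf-/- naive replicate 1 these 4 probe sets passed, with 1.36, 0.94, 1.50 and 1.32 (adjusted p = 0.00453, 0.0182, 0.00376 and 0.00523). They passed with array quality weights as well, with 1.43, 1.04, 1.45 and 1.42 (adjusted p from 0.00959 to 0.0416), but not with the 5 naive arrays alone.

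Maf varied among the Batf-/- naive arrays in the same order as some, but not all, of the 7 measured markers of innate-like T cells. Its level was 8.04, 8.79 and 9.42 in replicates 1, 2 and 3, and Ccr6, a chemokine receptor of such cells, had 6.30, 7.46 and 8.23 there, against 5.90 and 6.16 in wild-type naive arrays. Il17a had 3.98, 4.66 and 4.94 against 3.97 and 4.34, and Zbtb16 had 5.01, 5.21 and 5.25 against 4.98 and 4.87. Scart2 rose in the same order (8.33, 9.55 and 10.51), but wild-type naive arrays had 9.47 and 10.49. Il1r1, an interleukin 1 receptor gene, did not follow this order, with 6.55, 6.35 and 6.89 against 5.17 and 5.30. Neither did Tmem176a (8.81, 8.53 and 9.11 against 7.59 and 7.71) nor Tmem176b (9.96, 9.50 and 9.72 against 8.55 and 8.48). Of the 7 measured markers of this list 3 passed as higher in Batf-/- naive arrays and none as lower. B cell markers differed as well, with 4 of 9 higher and none lower and with list means of 6.94, 6.98 and 7.43 in Batf-/- replicates 1, 2 and 3 against 6.55 and 6.10 in wild type. Of 4 natural killer cell markers 1 was higher. Maf is known to be expressed in innate-like and other T cell subsets. The part of any of these cells in the Maf difference was not tested.

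Jdp2 and Nfil3 were highest among the naive arrays in Batf-/- replicate 1, the array with the most neutrophil RNA. S100a8, a neutrophil calcium-binding protein gene, had 10.64 there, against 5.19 and 6.67 in the other Batf-/- naive arrays and 6.90 and 5.82 in wild type, and Ltf had 7.50, 4.51 and 4.89 in Batf-/- and 4.90 and 4.47 in wild-type arrays. The naive genotype difference of Jdp2 was 0.79 ± 0.27 (adjusted p = 0.204) with that array and 0.37 (adjusted p = 0.0839) without it, and that of Nfil3 was 0.37 ± 0.18 (adjusted p = 0.381) and 0.16 (adjusted p = 0.662). That array also had the highest mean of the naive arrays for the marker lists of natural killer cells (8.48, against 7.20 and 7.67 in the other Batf-/- and 6.79 and 6.64 in wild-type arrays), of monocytes and macrophages (7.0, against 5.75 and 6.08, and 6.23 and 6.04) and of platelets (7.90, against 7.45 and 7.32, and 7.04 and 7.66). The part of these cells' RNA in the Jdp2 and Nfil3 values was not tested. Lower in Batf-/- naive arrays without overlap was Bach2 (-0.32 ± 0.11, adjusted p = 0.23). Higher without overlap were Mafk (0.18 ± 0.08, adjusted p = 0.3) and Atf3 (0.29 ± 0.14, adjusted p = 0.392).

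**Figure D5:**
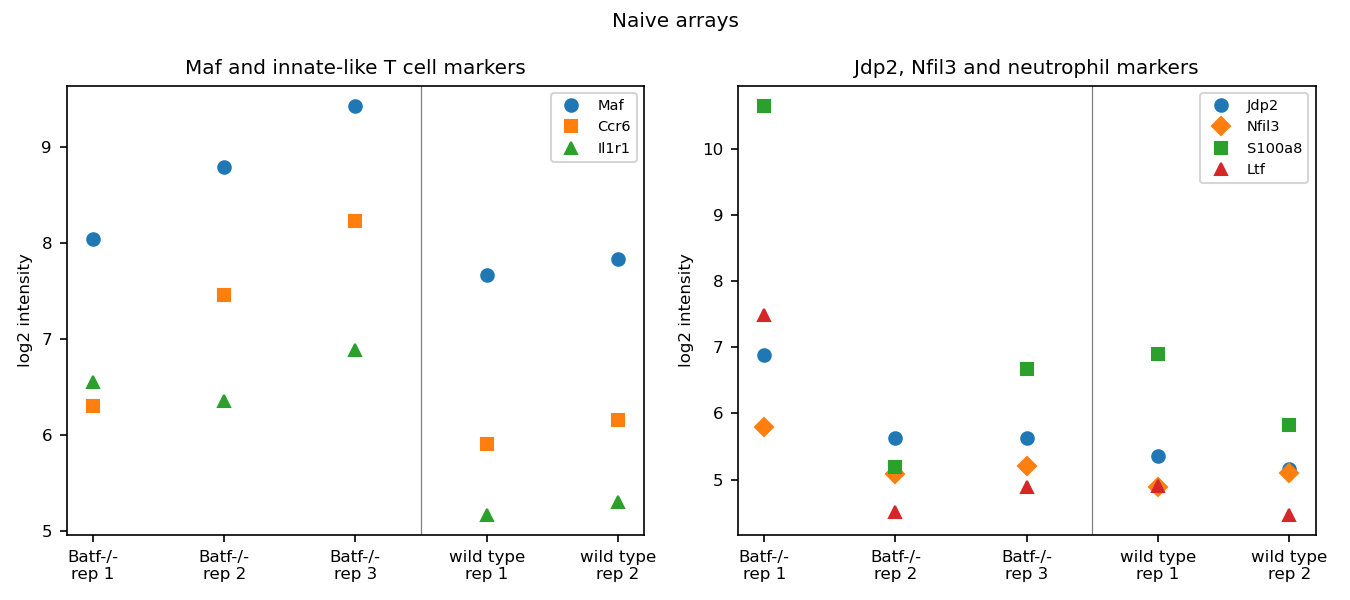
Log2 intensity in the 5 naive arrays, Batf-/- replicates 1 to 3 left of wild-type replicates 1 and 2, of Maf with Ccr6 and Il1r1 (left panel) and of Jdp2 and Nfil3 with the neutrophil genes S100a8 and Ltf (right panel). Maf and Ccr6 are highest in Batf-/- replicate 3 (9.42 and 8.23), and Jdp2, Nfil3, S100a8 and Ltf in Batf-/- replicate 1 (6.88, 5.79, 10.64 and 7.50).

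Whether the response to stimulation itself differed between the genotypes was tested as an interaction, the Batf-/- change minus the wild-type change. None of the 19 probe sets passed in limma, where 0.306% of all did, and 8 had an unadjusted p under 0.05, as had 11.0% of all. Jdp2 had the largest difference (-1.30 ± 0.34, SE, adjusted p = 0.155), followed by Maf (-0.99 ± 0.34, adjusted p = 0.296), Atf3 (-0.67 ± 0.18, adjusted p = 0.172) and Nfil3 (-0.52 ± 0.23, adjusted p = 0.414). Without Batf-/- naive replicate 1 the Jdp2 difference was smaller, at -0.88, and passed (adjusted p = 0.00422), and the brightest Maf probe set passed at -1.34 (adjusted p = 0.0177). The Maf probe sets 1447849_s_at (-1.36, adjusted p = 0.0243) and 1435828_at (-1.18, adjusted p = 0.0351) passed in that fit as well, against -0.72 and -0.81 with all arrays. Without Batf-/- naive replicate 2 Jdp2 passed at -1.51 (adjusted p = 0.0476). Atf3 was at -0.74 without replicate 1 (adjusted p = 0.104) and Nfil3 at -0.31 (adjusted p = 0.485), and neither passed. Bach2 was at 0.38 ± 0.15 (adjusted p = 0.353), Mafk at -0.20 ± 0.10, and Maff and Mafg were at -0.04 ± 0.16 and 0.08 ± 0.17.

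Partners and relatives of these factors are described by counts of their brightest probe sets, where stimulation raised 22.5% and lowered 22.4% of 18193 genes in Batf-/- and raised 21.5% and lowered 22.2% in wild-type cells. Of 5 measured CNC factors and large Maf relatives, which are further partners of the small Maf proteins or close relatives of Maf, 2 fell and none rose in each genotype. These were Nfe2, the erythroid and platelet partner of the small Maf proteins (-3.21 ± 0.30 in Batf-/- and -3.52 ± 0.34 in wild-type cells, lower bounds in size), and Nfe2l2, the antioxidant regulator Nrf2 (-0.61 ± 0.10 and -0.97 ± 0.12). Nfe2 is expressed by platelets, and the mean of 5 platelet markers was 5.17 to 5.21 in Batf-/- and 5.05 to 5.28 in wild-type day 3 arrays, against 7.32 to 7.90 in Batf-/- and 7.04 to 7.66 in wild-type naive arrays. The part of platelet RNA in the fall of Nfe2 was not tested.

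Genes with Maf recognition elements, the antioxidant and haem genes that Bach1 represses and Nrf2 activates, mostly did not pass. Of 15 measured, 3 rose and 1 fell in Batf-/-, and 2 rose and 1 fell in wild-type cells (median changes 0.03 and 0.00). The haem transporter gene Slc48a1 rose (0.80 ± 0.14 in Batf-/- and 1.10 ± 0.16 in wild-type cells), and Gclc, which codes for the first enzyme of glutathione synthesis, fell (-0.39 ± 0.06 and -0.62 ± 0.07). Me1, the malic enzyme gene, rose in both genotypes (0.31 and 0.75), and the quinone reductase gene Nqo1 rose in Batf-/- (0.81 ± 0.23). The Batf-/- calls of Me1 and Nqo1 were lost in 6 and 2 of 13 fits with 1 array removed (adjusted p up to 0.192 and 0.0692), for Me1 also without Batf-/- naive replicate 1 (0.14). Hmox1, the haem oxygenase gene that is the best known target of Bach1, was at 0.15 ± 0.18 in Batf-/- (adjusted p = 0.571) and 0.54 ± 0.21 in wild-type cells (adjusted p = 0.0521). Without Batf-/- naive replicate 1 it passed in both, at 0.43 (adjusted p = 0.0164) in Batf-/- and 0.54 (adjusted p = 0.00352) in wild-type cells, and of the 15 genes 4 rose and 2 fell in Batf-/- and 4 rose and 3 fell in wild-type cells.

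Most of the listed ATF stress response genes rose. Of 13 measured, 9 rose and 1 fell in each genotype, with median changes of 0.84 in Batf-/- and 0.92 in wild-type cells against 0.05 and 0.05 over all genes. With Batf-/- naive replicate 1 left out, 10 rose and 1 fell in each genotype. The lipoprotein receptor gene Vldlr (4.51 and 4.81) and the pseudokinase gene Trib3 (3.56 and 3.91) had the largest rises, followed by Ddit4 (2.04 and 2.18), an inhibitor of mTOR signalling, and Psat1 (1.85 and 2.12), an enzyme gene of serine synthesis. Ddit3, which codes for the bZIP factor Chop, rose by 0.84 in Batf-/- and 0.92 in wild-type cells. The 1 gene that fell was Ppp1r15a, which codes for a phosphatase subunit that restores translation after stress (-1.65 and -1.68). Atf4 itself rose (0.49 ± 0.09 and 0.41 ± 0.10). Among 13 ATF and CREB relatives 5 rose and 6 fell in Batf-/- and 5 rose and 4 fell in wild-type cells, and Crem, a cyclic AMP-responsive factor, rose by 3.21 ± 0.09 in Batf-/- and 3.31 ± 0.10 in wild-type cells. Creb3l1 rose (0.75 and 0.51) and Atf6b (-0.53 and -0.69) and Creb3 (-0.48 and -0.59) fell in both genotypes. Creb3l2 passed as lower in Batf-/- cells (-0.85, with -0.30 in wild type). The wild-type call of Creb3l1 was lost without wild-type naive replicate 2 (0.37, adjusted p = 0.162). In Batf-/- cells the calls of Atf7, Atf5 and Crebzf were lost in 4, 3 and 3 of 13 fits with 1 array removed. In wild-type cells those of Crebzf, Atf2, Creb1 and Atf5 were lost in 4, 3, 2 and 1 of these fits. Without Batf-/- naive replicate 1, 4 of the ATF and CREB relatives rose and 7 fell in Batf-/- cells. Of 5 measured CEBP family genes, 2 rose in each genotype, Ddit3 and Cebpg (0.36 and 0.44), and 2 fell in Batf-/- cells, Cebpd (-1.82 ± 0.45, toward a day 3 mean near the background) and Cebpa (-0.68 ± 0.22). Both were highest in Batf-/- naive replicate 1, with 7.13, 4.30 and 4.94 for Cebpd and 6.28, 5.03 and 5.05 for Cebpa in the 3 Batf-/- naive arrays. Without that array the changes were -0.98 (adjusted p = 0.000569) and -0.27 (adjusted p = 0.0252), and the Cebpa call was lost without Batf-/- day 3 replicate 1 (adjusted p = 0.0615). Without Batf-/- naive replicate 1, Cebpd passed in wild-type cells too (-0.80, adjusted p = 0.00233).

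Nfil3 binds the same sites as the PAR bZIP activators Dbp, Hlf and Tef, which are under the control of the circadian clock. Dbp rose by 1.71 ± 0.11 in Batf-/- and 1.50 ± 0.13 in wild-type cells, Tef rose by 0.26 ± 0.08 and 0.25 ± 0.09, and Hlf fell (-0.76 ± 0.11 and -0.38 ± 0.13). The wild-type calls of Tef and Hlf were lost in 8 and 5 of 13 fits with 1 array removed (adjusted p up to 0.147 and 0.119), and the Batf-/- call of Tef without Batf-/- naive replicate 1 (0.17, adjusted p = 0.0841). Of the 13 PAR bZIP and clock genes 5 rose in each genotype, and 6 fell in Batf-/- and 5 in wild-type cells. The clock repressor genes Per3 (1.02 and 1.21), Ciart (0.84 and 1.04) and Per1 (0.78 and 0.90) were among those that rose, and Nr1d2 (-0.79 and -0.63), which codes for the clock repressor Rev-erb beta, was among those that fell. The labels give no time of day for the samples.

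Genes linked to Bach2, Maf and Nfil3 included Prdm1, which codes for Blimp-1 and is a target that Bach2 represses. Prdm1 had 8.21, 8.15, 8.13 and 8.17 in Batf-/- day 3 arrays and 8.50, 8.48, 8.37 and 8.28 in wild-type day 3 arrays, against 5.85, 6.01 and 6.61 in Batf-/- naive and 5.68 and 5.61 in wild-type naive arrays. It rose in both genotypes (2.01 ± 0.14 in Batf-/- and 2.76 ± 0.15 in wild-type cells), its day 3 arrays did not overlap between them, and the difference there did not pass (-0.25 ± 0.13, adjusted p = 0.531). Of the 8 genes, 2 rose and none fell in Batf-/-, Prdm1 and Eomes (0.96 ± 0.27, and 0.46 without Batf-/- naive replicate 1, adjusted p = 0.00776). In wild-type cells 3 rose, Prdm1, Havcr2 (0.69 ± 0.21) and Il10 (0.36 ± 0.13), and 1 fell, Il3 (-0.33 ± 0.11). Both Il10 and Il3 were near the background in all groups, and their calls were lost in 4 and 3 of 13 fits with 1 array removed, while that of Havcr2 was lost without wild-type naive replicate 1 (adjusted p = 0.127). Havcr2, which codes for the inhibitory receptor Tim-3 and has been linked to Nfil3, was the only gene of these 7 lists that passed between the genotypes, at day 3 (-1.23 ± 0.17, adjusted p = 0.00392). Its day 3 levels were 4.91, 4.82, 4.69 and 4.10 in Batf-/- and 6.03, 5.66, 5.78 and 5.97 in wild-type arrays. Il10 had a difference of -0.29 ± 0.10 at day 3 (adjusted p = 0.291). Other genes of the lists passed between the genotypes once 1 array was left out. Without Batf-/- naive replicate 1, Eomes (0.83, adjusted p = 0.000983) and Nqo1 (0.74, adjusted p = 0.00904) passed at day 3, Me1 passed in naive cells (0.51, adjusted p = 0.0233), and the interaction passed for Nqo1 (1.18, adjusted p = 0.027), Me1 (-0.61, adjusted p = 0.0326) and Prdm1 (-0.91, adjusted p = 0.0474). Without replicate 2, Atf6 passed at day 3 (-0.39, adjusted p = 0.0325) and Creb3l2 in naive cells (0.43, adjusted p = 0.0387), and both passed for the interaction (-0.73 and -0.68). Without Batf-/- day 3 replicate 1, Id2 passed at day 3 (0.49, adjusted p = 0.0212) and in naive cells (0.62, adjusted p = 0.02).

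The genes whose levels followed each factor most closely over the 13 arrays were found among 12712 genes outside the dim 40%, as a description, since all arrays share the naive and day 3 split. Maf was followed by an immunoglobulin kappa variable gene (Pearson's r = 0.982) and by Ccr6 (0.982), and Mafk by the B cell genes Blnk and Ms4a1 (0.992 each). Jdp2 was nearest to Rab27a (0.992), which codes for a GTPase of granule release, and Dynlt3 (0.989). Nfil3 was nearest to Tspoap1 and Ero1a (0.999 each), Maff to Afg3l2 and Cercam (0.995 and 0.994), Mafg to Slc31a1 and Snx3 (0.995 and 0.994), Atf3 to Cdk19 and Ostf1 (0.976 each) and Bach2 to Usp34 and 1110002L01Rik (0.974 and 0.973).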

How the data were processed

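Biotin-labelled RNA of 13 samples was hybridised to 1 array each. The deposited values are linear intensities that the authors made with RMA, per the submitters' processing notes; its version and the genome build are not given in the sources used here. Of 45101 rows, 64 controls were left out. Genes were named from the platform annotation: 34945 probe sets have 1 gene, 932 several and 9160 none. Array medians were 31.5 to 32.5. Intensities were taken to log2 and limma 3.58.1 (R 4.3.3) fitted 4 group means to the 13 arrays together (9 residual and 4.42 prior degrees of freedom), with Benjamini-Hochberg adjustment over 45037 probe sets and a threshold of 0.05. Fold changes are between group means of log2 values. The steps were tested on simulated data.

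The members and gene lists were chosen with earlier results of these data known. All member probe sets are described. From each gene list, members that passed were named, up to 4 per comparison by size, with Batf, Prdm1, Hmox1, Dbp, Tef, Nfe2l2, Havcr2, Il10, Ddit3 and Atf4 in any case. Hlf, Ppp1r15a, Atf6 and Id2 were named after their values were seen. Leaving out each array for the list genes was added after seeing the data. Alternatives were other normalisations, a filter on dim probe sets, other variance settings, array weights, the compared groups alone, a replicate block and leaving out each array.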

Additional observations from a re-analysis of the deposited data

Results flagged for a closer look

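In 38 groups of 4 arrays tested for an outlying value, 3 arrays stood apart, and chance gives about 1 in 20. All 3 were wild-type day 3 arrays. Nfil3 was 9.26 in replicate 4, against 9.58 to 9.61 in the others. The dimmest Bach2 probe set, 1445460_at, was 5.33 in replicate 3, against 5.62 to 5.63 in the others, and Maf 1447849_s_at was 3.43 in replicate 2, against 3.74 to 3.76.

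For Jdp2 and Atf3 the genotype difference had opposite signs in the 2 states, with every Batf-/- array below every wild-type array at day 3 and above in naive cells. The difference of the differences was -1.30 for Jdp2 (limma adjusted p = 0.155) and -0.67 for Atf3 (adjusted p = 0.172), and neither passed.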

How the results depend on the processing

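Of 2051 single member results under the alternatives, 2004 kept their side of the threshold, 26 passed newly and 21 no longer passed. The sign changed in 71, none of which passed under either setting (main log2 differences up to 0.19). Between the genotypes at day 3, 2 member probe sets passed with array quality weights and 1 with the compared groups alone, against 0. In naive cells and for the interaction, 4 passed with array quality weights, against 0. Leaving out 1 array gave 0 to 1 at day 3, 0 to 4 in naive cells, 0 to 4 for the interaction, 13 to 14 for stimulation of Batf-/- and 10 to 15 of wild-type cells. The higher counts came without Batf-/- naive replicate 1 (1, 4 and 4) and, for the interaction, without replicate 2 (1). Same-numbered arrays of different groups did not deviate together (r from -0.27 to 0.07 over 16 pairs). With so few arrays a group, the deviations within a group depend on each other, so whether such arrays share more than a number cannot be told. With the number as a replicate block, 0 passed at day 3, 0 in naive cells, 14 and 12 for stimulation of Batf-/- and wild-type cells and 0 for the interaction. Over all probe sets, 348 passed between the genotypes at day 3 (127 to 1659 under the alternatives), 333 in naive cells (2 to 1623) and 138 for the interaction (47 to 531). The cause was not tested. The filter on dim probe sets left 16 members, and gene-level settings give no count of member probe sets.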
